A study of Mus musculus with 3 samples.

Results

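The 10 genes described here are markers and regulators of epithelium: Epcam, Cdh1, Trp63, Krt5, Krt14, Cldn6, Grhl2, Esrp1, Ovol1 and Tfap2a. They were chosen by name from 21593 protein-coding genes that were counted, and all 10 were found in the mm10 annotation and passed the minimum of fragments used for the comparisons. The study profiled open chromatin in single nuclei with the transposase Tn5, which inserts sequencing adapters into accessible DNA (snATAC-seq), as a companion to spatial maps of the same developmental stages. The nuclei came from frozen sections of whole wild-type (WT) embryos of the mouse strain C57BL/6JRj taken on embryonic day E15.5, E13.5 or E12.5, littermates of the embryos used for the maps. All 3 groups share that strain and genotype, the labels name no transgene or treatment, and each stage is 1 library, so stages were placed side by side without a test.

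Epithelial cells form sheets that line surfaces, ducts and the gut. They are held together by cadherin and claudin junctions, stand on a basement membrane and carry a network of keratin filaments. In the embryo, an outer layer of surface ectoderm becomes the epidermis, whose basal cells are marked by a pair of keratins and the factor p63, while endoderm gives the simple epithelia of gut, lung and glands. Factors of the grainyhead, Ovol and AP-2 families and the splicing regulators of the Esrp family are known to establish or keep the epithelial state, and repressors such as Snail are known to bind E-box elements of epithelial promoters.

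The question was where in the embryo nuclei these 10 genes were most accessible. The authors' table gave 12 cluster numbers. Clusters 2 and 4 were left out, and cluster 7 (109 nuclei, 6 from E12.5, 36 from E13.5 and 67 from E15.5) was set beside the other 9 clusters together (1341 nuclei, 77, 773 and 491 in the same order). Within cluster 7 the median nucleus held 57677, 66472.5 and 77199 unique fragments by stage, against 93198, 75897 and 61369 in the other clusters. For each gene, fragments over the gene body and the 2 kb upstream were summed (the gene span), scaled to 1000000 such fragments over all genes (CPM), and so were fragments in the promoter, from 1000 bp upstream to 100 bp downstream of the gene start. Ranges given after a value in parentheses are exact 95% intervals and cover counting error only. A gene is called raised in cluster 7 when its CPM was at least 1.5 times that of the other clusters with the lower bound above 1, and lowered for the mirror image. The cluster numbers belong to these same nuclei and may have been set from the same fragments, also after integration with the spatial spots, so that cluster 7 against the rest is a description and no p-value is given.

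Cluster 7 could not be named by its markers. Of 8 epithelial markers 7 were raised in the gene span, of 9 chondrocyte markers 8 and of 7 glia markers 4, and its 10 leading genes (C130032M10Rik, Klhdc7a, Hcar1, Cldn3, Car3, Sfn, Olfr159, Fxyd3, Cidec and Matn3) include epithelial genes and the cartilage matrix gene Matn3. Doublets were not removed. The libraries shared 1 barcode, which was not in cluster 7. In E13.5, 11 of the 36 cluster 7 nuclei had fragments identical to those of another barcode in the table (linked barcodes, at least 10% of the shallower barcode's fragments). None of the cluster 7 nuclei of E12.5 and E15.5 were linked. Keeping 1 barcode of each linked group left 26 nuclei in E13.5, and values without the others are given where they change a call or bear most on a value. Of the 10 genes, Tfap2a went from 1.30 to 1.15 in the E13.5 gene span and from 2.50 to 1.97 at the promoter, and Grhl2 from 3.65 to 2.79 at the promoter (1.24 to 5.52).

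The promoter sequences of Epcam, Krt5 and Cldn6 are shown as the windows before the gene start, among those that the RefSeq table holds, whose ratio of cluster 7 to the others had an interval above 1. They are the bases just before the RefSeq gene start in mm10, 5′ to 3′ on the gene's strand, and for Cldn6 the bases that GENCODE puts in its first exon were left off. Capitals mark CACCTG on either strand, the E-box form known to be bound by Snail and Zeb repressors.
Epcam promoter, chr17:87635729-87635978, plus strand: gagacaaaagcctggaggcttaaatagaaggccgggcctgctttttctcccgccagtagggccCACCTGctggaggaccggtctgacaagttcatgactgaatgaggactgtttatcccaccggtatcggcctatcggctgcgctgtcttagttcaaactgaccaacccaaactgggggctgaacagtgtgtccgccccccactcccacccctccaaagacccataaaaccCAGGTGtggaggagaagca
Krt5 promoter, chr15:101712906-101713155, minus strand: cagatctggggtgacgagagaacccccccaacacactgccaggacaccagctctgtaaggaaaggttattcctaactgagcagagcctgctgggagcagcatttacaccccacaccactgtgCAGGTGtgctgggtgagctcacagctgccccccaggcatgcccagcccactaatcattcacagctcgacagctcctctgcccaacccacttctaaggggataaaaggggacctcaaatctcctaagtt
Cldn6 promoter, chr17:23679115-23679248, plus strand: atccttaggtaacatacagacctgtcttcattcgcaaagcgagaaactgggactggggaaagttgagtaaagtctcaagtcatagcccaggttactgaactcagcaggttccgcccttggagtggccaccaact
Over these 250 bases Epcam had 23 fragments in cluster 7 (0, 4 and 19 by stage, in 13 nuclei), 5.41 times the rate of the other clusters for equal numbers of fragments (3.17 to 8.94). Krt5 had 10 fragments, all of them from E13.5 and in 8 nuclei, at 10.8 times the rate (4.17 to 27.2). With 1 barcode of each linked group, 5 Krt5 fragments in 3 nuclei were left at 5.49 times the rate (1.52 to 16.7), and 19 Epcam fragments at 4.55 times (2.55 to 7.79). The most covered window of Epcam lay elsewhere, 750 bp inside the gene, and so did that of Cldn6, 1750 bp upstream with 45 fragments and a ratio of 1.45 (1.04 to 1.97). The 250-base window of Cldn6, of which 134 bases are printed, had 14 fragments (0, 2 and 12) at 2.87 times the rate (1.49 to 5.18). The Epcam and Cldn6 fragments thus came mostly from E15.5, and those of Krt5 from E13.5. CACCTG was searched on both strands, and 17.2% of 32851 RefSeq promoters of 250 bases hold it. Epcam has it from 187 to 182 and from 19 to 14 bases before the start, Krt5 from 128 to 123, and Cldn6 from 93 to 88, in exon bases that are not printed. No match was found in these windows for TATAAA (12.4% of promoters), for the AP-2 form GCCNNNGGC (13.7%) or for the grainyhead form AACCNGGTT (0.24%). Other forms of these sites, such as other spacings, were not searched. The RefSeq table also held Krt14, whose window lies inside the gene as GENCODE draws it and had 2 cluster 7 fragments, and Tfap2a, whose 2 windows had 1 and 11. Cdh1, Trp63, Grhl2, Esrp1 and Ovol1 were not matched. The GC content was 56.4% for Epcam and 56% for Krt5.

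Most of the 10 genes were more accessible in cluster 7 than elsewhere. In the gene span 7 of 10 were raised (Epcam, Cdh1, Krt5, Krt14, Cldn6, Grhl2 and Esrp1) and 0 lowered, while 4.96% of the 20402 genes tested were raised and 8.72% lowered. The same 7 were highest in cluster 7 among the 10 clusters, which held for 6.45% of genes. For Krt5 the margin was within counting error, with 11.5 CPM (8.70 to 14.8) beside 9.06 CPM (7.46 to 10.9) in cluster 3. The interval of Epcam (21.1 to 30.0) overlapped that of cluster 10 (15.4 to 23.9). Those of Cdh1, Krt14 and Cldn6 also overlapped the interval of another cluster. The median ratio of the 10 genes was 1.73, beside 0.976 over all genes tested. At promoters 7 of 10 were raised (Epcam, Cdh1, Krt5, Krt14, Grhl2, Esrp1 and Ovol1) and 0 lowered, against 7.27% raised and 7.53% lowered of 19019 genes, and the median ratio was 3.10 beside 0.957. These 7 promoters were highest in cluster 7, that of Ovol1 by a margin within counting error, again beside 6.45% of genes. The promoter intervals of Epcam, Krt5, Krt14 and Grhl2 also overlapped that of another cluster. Trp63 and Tfap2a were raised in neither measure. The 10 genes are a selection of epithelial markers, and 5 of them were also among the 8 markers used to examine the cluster, so the counts describe the list and no more.

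**Figure D1:**
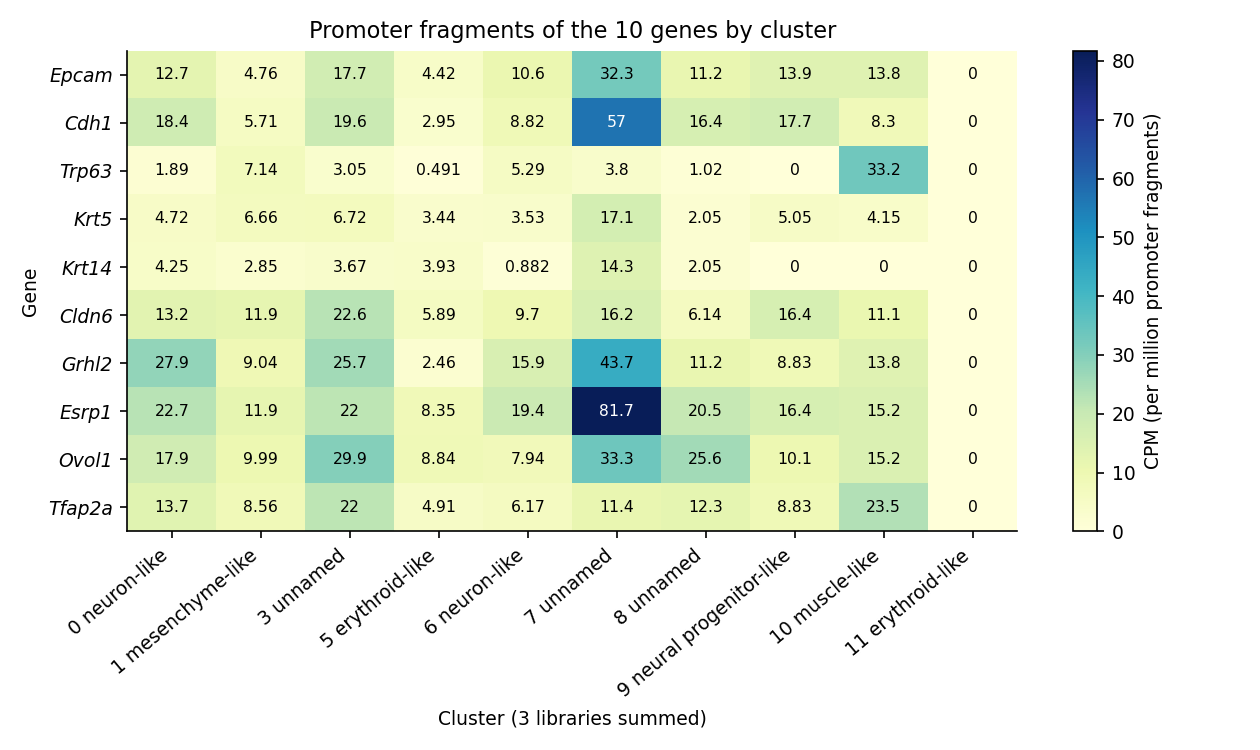
Promoter fragments of each of the 10 genes (rows) in each of the 10 clusters (columns, 3 libraries summed), as CPM (colour, with the value printed in each field). Cluster 7 holds the highest field for 7 genes, from 14.3 for Krt14 to 81.7 for Esrp1, while Trp63 and Tfap2a are highest in muscle-like cluster 10 and Cldn6 in cluster 3.

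Summed over the 10 promoters, cluster 7 had 293, 306 and 314 CPM in the order of the stages, against 163, 103 and 94.1 CPM in the other clusters. Cluster 7 was above the others together in each of the 3 libraries. At E12.5 it rested on 14 fragments (160 to 492 CPM, against 134 to 197 CPM). Cluster 10, with 2 nuclei and 5 fragments in that library, had 333 CPM. Over the 3 libraries the sum was 311 CPM (278 to 346) in cluster 7 and 103 CPM in the others, with 173 CPM in cluster 3, the next, and 45.7 CPM in erythroid-like cluster 5. Cluster 11, also erythroid-like, had 0 fragments in 43 nuclei, which allows up to 13.1 CPM. In the gene span the sums of cluster 7 were 655, 710.4 and 562 CPM against 488, 386 and 389.7 CPM. At E12.5 the gene span of cluster 10 had 940 CPM, from 2 nuclei. Promoters made up 13.1% of the fragments of cluster 7 and 11.3% of those of the others, and the promoter CPM is scaled by promoter fragments.

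Of the 3 adhesion and junction genes, all were raised in the gene span. Epcam (chr17:87635979-87651129, plus strand), a surface adhesion molecule of simple epithelia, had 20.4, 27.8 and 24.6 CPM in the gene span of cluster 7 by stage and 23.9, 15.4 and 12.51 CPM in the others. Cluster 7 was higher in the later libraries, while the 5 fragments of E12.5 gave a ratio within counting error of 1 (0.27 to 2.05), and the ratio over all was 1.67 (1.38 to 2.02). At the promoter it had 0, 7 and 27 fragments, and the ratio was 3.19 (2.11 to 4.70). The E15.5 library carried most of this: without it the promoter ratio was 1.93 (0.75 to 4.14), and in E13.5 alone 4 of the 7 fragments belonged to linked barcodes that were left out, which took the ratio from 2.23 to 1.05. The promoter window of an annotated start inside the gene, which overlaps that of the gene start, held more fragments, with 68 fragments in 29 nuclei at 4.49 times the rate of the others for equal numbers of fragments (3.35 to 5.94).

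Cdh1 (chr8:106603351-106670246, plus strand) encodes E-cadherin, the adhesion protein of epithelial junctions, and was the most even of the 10 across libraries. Its gene span had 151, 124 and 121 CPM in cluster 7 and 78.4, 65.3 and 62.4 CPM in the others. Cluster 7 was higher than the others together at every stage, and the ratios were 1.92, 1.90 and 1.93, with 1.88 over all (1.73 to 2.05). Cluster 8 came close over all, with 106 CPM (97.4 to 115.8) beside 123 CPM (113.5 to 133.1) in cluster 7. By stage cluster 8 had 121 CPM in E13.5 and 82.7 CPM in E15.5. The promoter had 6, 9 and 45 fragments and a ratio of 4.96 (3.60 to 6.77), and it was raised in each of the 3 libraries, although 4 of the 6 fragments of E12.5 came from 1 nucleus. Inside the gene, the 500-bp window with most cluster 7 fragments lay in an intron 16250 bp from the start, with 47 fragments in 24 nuclei at 3.60 times the rate of the others (2.55 to 4.99). That window was not particular to cluster 7: cluster 8 had 5.96 there per 1000000 of its fragments and cluster 7 had 5.83.

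Cldn6 (chr17:23679249-23682446, plus strand), a claudin of early embryonic epithelium, had 36.6, 20.7 and 26.6 CPM in the gene span of cluster 7 and 19.955, 15.3 and 13.9 CPM in the others. It was higher in each library, but the interval of E12.5, from 9 fragments, and of E13.5 reached below 1, and the ratio over all was 1.68 (1.38 to 2.02). Its 2 kb upstream overlap Tnfrsf12a, so that fragments there count for both genes, and without E15.5 it fell short of the threshold with 1.46. The promoter at the gene start was not raised (17 fragments, ratio 1.36, 0.77 to 2.25). Counting all annotated starts, some of which lie inside the gene, gave 50 fragments in 26 nuclei and a ratio of CPM of 2.67 (1.92 to 3.64). At the gene start it was raised in E15.5 (2.32, 1.03 to 4.86), with the ratio stratified by library (1.72, 1.01 to 2.91) and with a window of 1000 bp on either side (2.38, 1.75 to 3.18). The call at the Cldn6 promoter thus depended on the setting. The gene body alone gave a span ratio of 2.27.

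Of the 2 basal keratins, Krt5 was raised in the gene span of E13.5 alone and Krt14 in both earlier libraries. Krt5 (chr15:101707070-101712898, minus strand) and Krt14 (chr11:100203162-100207548, minus strand) encode the partner keratins of basal cells in stratified epithelium such as epidermis. Krt5 had 4.07, 25.7 and 6.15 CPM in the gene span of cluster 7, against 12.3, 4.88 and 5.18 CPM in the others. It stood out in E13.5 alone, with a ratio of 5.25 (3.57 to 7.54), while 0.331 at E12.5 rested on 1 fragment and 1.19 at E15.5 was within counting error. The 36 fragments of E13.5 lay in 11 nuclei, and 1 nucleus held 14 of them. Over all libraries the ratio was 2.08 (1.55 to 2.76), and without E13.5 it was 0.929. The gene body alone, without the 2 kb upstream, gave 1.47 (0.98 to 2.14), which was not raised. At the Krt5 promoter there were 0, 12 and 6 fragments, with a ratio of 3.65 (2.02 to 6.32), or 1.56 (0.52 to 3.94) without E13.5.

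Krt14 had 16.3, 19.2 and 5.27 CPM in the gene span of cluster 7 and 2.78, 4.25 and 4.05 CPM in the others. The 4 fragments of E12.5 came from 1 nucleus and gave a ratio of 5.85 (1.37 to 19.3). E13.5 had 27 fragments in 8 nuclei, with a ratio of 4.53 (2.90 to 6.84), and in E15.5 the ratio was 1.30 (0.73 to 2.19). Over all it was 2.37 (1.71 to 3.23), and without E13.5 it was 1.57 with an interval from 0.94 to 2.53. At the Krt14 promoter, 11 of 15 fragments came from E13.5 and 2, both in 1 nucleus, from E12.5. The ratio was 5.23 (2.63 to 9.95) over all, and without E13.5 the promoter was no longer raised, with 2.39 (0.55 to 8.29). Linked barcodes carried part of these fragments. With 1 barcode of each group the E13.5 span ratio of Krt5 went from 5.25 to 4.31 (2.76 to 6.47) and that of Krt14 from 4.53 to 2.93 (1.64 to 4.91), on 27 and 16 fragments, and both were still raised. At the promoters 7 of 12 Krt5 fragments and 5 of 11 Krt14 fragments were left, with ratios of 6.30 (2.35 to 14.5) and 6.54 (1.94 to 17.7).

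**Figure D2:**
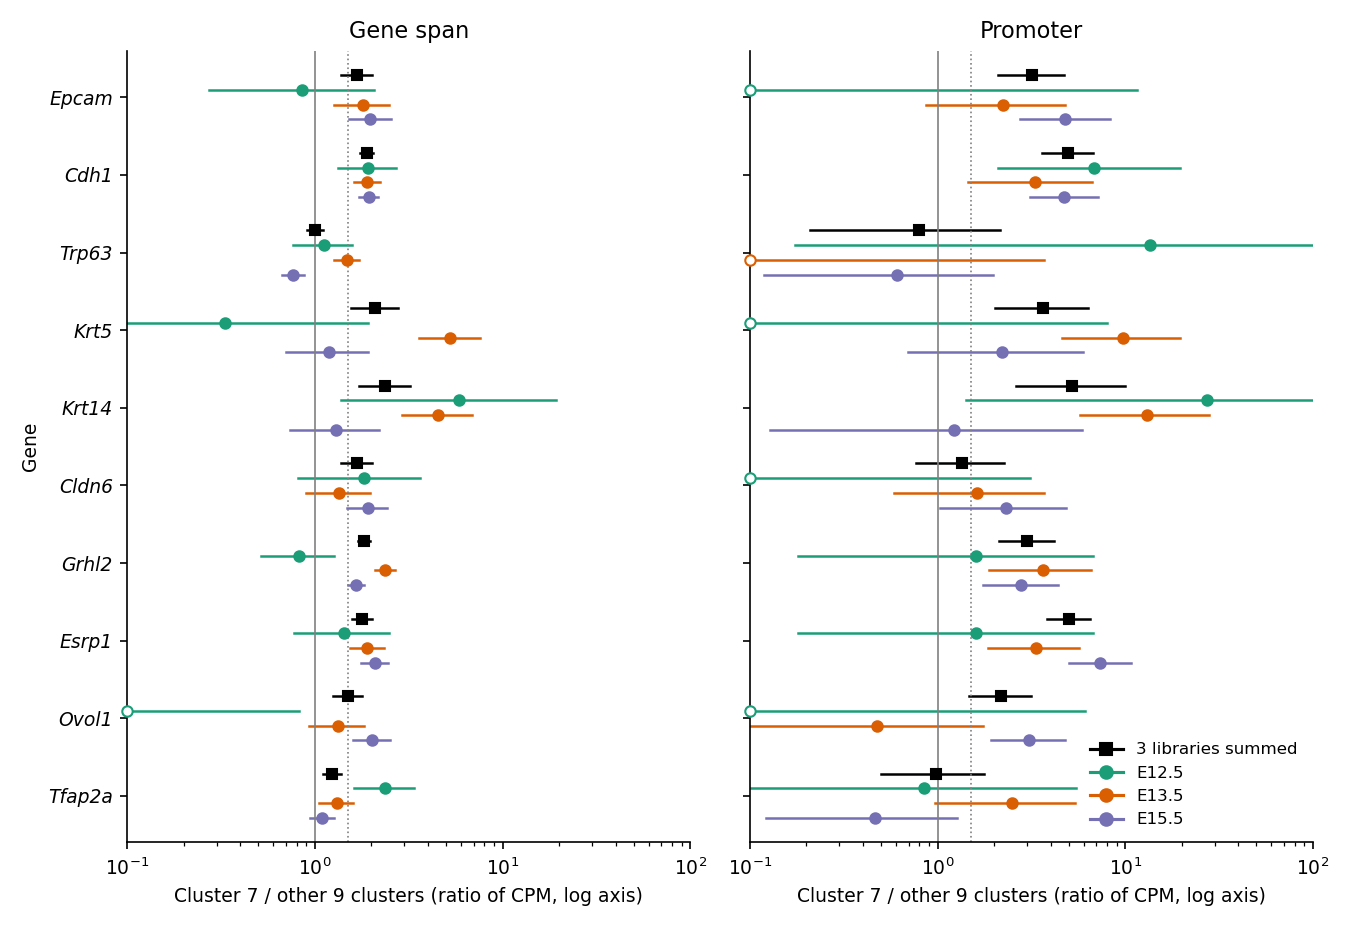
Ratio of cluster 7 to the other 9 clusters for each of the 10 genes, in the gene span (left) and at the promoter (right), on log axes. Black squares are the 3 libraries summed and circles the single libraries, bars are 95% counting intervals cut at the axis ends, open circles at the left edge are ratios of 0, the solid line is 1 and the dotted line 1.5. Cdh1 lies right of the dotted line in every library, Krt5 does so in E13.5 alone for the gene span, and the summed values of Trp63 and Tfap2a lie between 0.80 and 1.24.

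Of the 4 transcription factors, Grhl2 was raised in both measures, Ovol1 at its promoter, and Trp63 and Tfap2a in neither. Grhl2 (chr15:37233036-37363569, plus strand), a grainyhead-family activator of epithelial junction genes, had 89.6, 199.5 and 151 CPM in the gene span of cluster 7 and 108, 84.2 and 91.8 CPM in the others. It was raised in E13.5 and E15.5 and not in E12.5, where the ratio was 0.827 (0.51 to 1.27), and over all the ratio was 1.83 (1.70 to 1.97). The promoter had 2, 13 and 31 fragments and a ratio of 3.004 (2.12 to 4.18). An intron window 1250 bp from the start had 58 fragments in 40 of the 109 nuclei, 4.44 times the rate of the others (3.23 to 6.01), and this was the window found in the most cluster 7 nuclei among those most covered in each gene, other than that of Tfap2a. The start inside Grhl2 was not raised, with 5 fragments and a ratio of 0.99 (0.31 to 2.44).

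Ovol1 (chr19:5549136-5560646, minus strand), a zinc-finger repressor in epithelial differentiation, was led by E15.5. Its gene span had 0, 27.8 and 31.0 CPM in cluster 7 and 18.8, 20.998 and 15.49 CPM in the others. The E12.5 value of 0 allows up to 12.2 CPM. Beside 81 fragments in the others, the gene span met the call of lowered in that library, with a ratio of 0 (0 to 0.82). E15.5 was the only library in which the gene span of Ovol1 was raised, with a ratio of 2.004 (1.59 to 2.51). Over all, the ratio of 1.499 (1.25 to 1.78) placed it just outside the threshold, with Epcam and Cldn6 just inside, and cluster 8 was higher with 32.3 CPM. It passed under 7 of 11 alternatives. The Ovol1 promoter had 0, 2 and 33 fragments, its ratio was 2.18 (1.47 to 3.15), and without E15.5 that was 0.404. Its level in cluster 7, 33.3 CPM (23.2 to 46.3), was within counting error of that in cluster 3, 29.9 CPM (22.1 to 39.6). Of the 28 fragments in its most covered window, across the gene start, 26 came from E15.5.

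Trp63 (chr16:25683763-25892102, plus strand) encodes p63, the factor of basal stratified epithelium, and was not raised in cluster 7. Its gene span had 138, 126 and 76.1 CPM in cluster 7 and 124, 85.6 and 99.7 CPM in the others. Cluster 7 was higher in E13.5, with 1.47 (1.26 to 1.72), and lower in E15.5, with 0.764 (0.67 to 0.87), and over all the ratio was 1.00 (0.91 to 1.10). Muscle-like cluster 10 had the most, 165 CPM, and led at the promoter too with 33.2 CPM against 3.80 CPM in cluster 7. The gene has an upstream start, which gives the long TA forms, and a start inside the gene, which gives the ΔN forms known from basal epidermis. Each had 4 cluster 7 fragments, with ratios of 0.92 (0.24 to 2.50) and 1.62 (0.42 to 4.56), so that with these counts a difference between them could not be detected.

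Tfap2a (chr13:40715302-40738376, minus strand), an AP-2 factor of surface ectoderm and neural crest, had 142 (35 fragments in 6 nuclei), 69.8 and 62.1 CPM in the gene span of cluster 7 and 60.3, 53.5 and 56.8 CPM in the others. E12.5 was raised, with a ratio of 2.36 (1.61 to 3.37), E13.5 had 1.30 and E15.5 had 1.09, and over all it was 1.24 (1.10 to 1.38). Erythroid-like cluster 11 had the highest level, 94.6 CPM. It was also the highest in the window most covered in cluster 7, which overlaps an exon 15324 bp from the start and where cluster 11 had 72.1 per 1000000 of its fragments and cluster 7 had 11.5. Of its 5 groups of annotated starts, 1 had an interval above 1, with 36 fragments in cluster 7. This was 1.56 times the rate of the others for equal numbers of all fragments (1.07 to 2.21), not a ratio of CPM. Cluster 6 was higher at that start, with 5.14 per 1000000 of its fragments beside 4.47 in cluster 7.

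Esrp1 (chr4:11331933-11386783, minus strand), which encodes an RNA-binding protein that directs epithelial splicing, had the highest promoter level of the 10 in cluster 7. The promoter had 2, 16 and 68 fragments in 34 nuclei, or 81.7 CPM against 16.3 CPM, and the ratio was 5.001 (3.83 to 6.48). By stage this was 41.9, 59.0 and 92.7 CPM in cluster 7 and 26.2, 17.5 and 12.7 CPM in the others. Cluster 7 was higher than the others together in each library, and without E15.5 the ratio was 3.09. At E12.5 both fragments came from 1 nucleus, the ratio of 1.60 (0.18 to 6.75) was within counting error of 1, and cluster 10 had 66.6 CPM. In the gene span the values were 57.0, 69.8 and 58.0 CPM against 39.7, 36.8 and 27.8 CPM, with 1.79 over all (1.58 to 2.02). The E12.5 span ratio of 1.44 (0.77 to 2.48) was within counting error of 1, and cluster 8 had 122 CPM there, from 2 nuclei. Over all libraries the gene body of Esrp1 alone had 1.43 (1.23 to 1.65), short of the threshold. Its most covered window was centred 400 bp upstream of the start, with 45 fragments at 6.46 times the rate of the others (4.42 to 9.35).

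Per kilobase of gene span the order of levels within cluster 7 differed from the order of ratios. Cldn6 had 4.90 CPM per kb, followed by Tfap2a with 2.72, Ovol1 with 2.12 and Cdh1 with 1.79. Krt14, Epcam and Krt5 had 1.51, 1.47 and 1.46 CPM per kb, Grhl2 had 1.22 and Esrp1 1.08, and Trp63 was lowest with 0.44. The top and the bottom of this order stood clear of their neighbours, while the intervals of all other neighbours overlapped. In the other clusters Cldn6 was again highest with 2.92 CPM per kb and Trp63 lowest with 0.44. The 2 kb upstream of Cldn6 overlap Tnfrsf12a and count in its span. There, 1 window 1750 bp upstream held 34.9% of its cluster 7 span fragments and 402 fragments of the other clusters.

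The fragments of cluster 7 gathered at the gene starts. Insertions within the 100 bp before the start, summed over the 10 genes, were 16.1 per 1000000 fragments in cluster 7 and 2.64 in the other clusters. At 1950 bp upstream they were 2.85 and 1.39, so cluster 7 was higher there as well, by a smaller difference. The highest bin of the other clusters was centred 1750 bp upstream, with 3.91 beside 4.59 in cluster 7. The most covered window of Cldn6 lies at that distance and held 402 fragments of the other clusters. Over all annotated promoters of the 10 genes, 70.9% of the 529 cluster 7 fragments were shorter than the DNA of a nucleosome (66.8 to 74.7%), against 65.3% of all fragments of cluster 7. In the other clusters the shares were 63.1% of 2515 fragments (61.2 to 65.0%) and 63.5%.

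**Figure D3:**
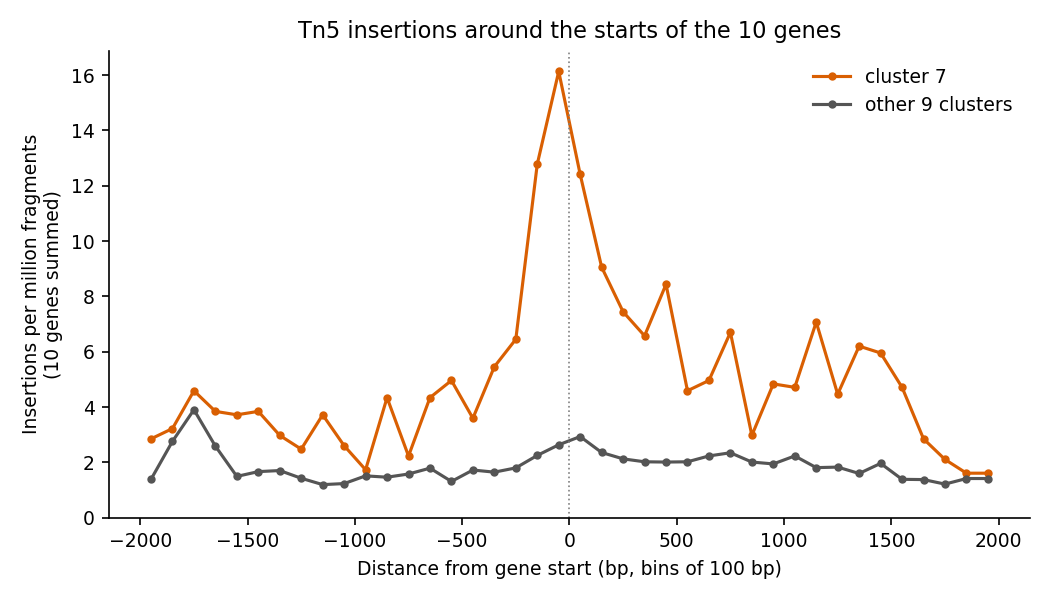
Tn5 insertions per 1000000 fragments, summed over the 10 genes in bins of 100 bp, against the distance from the gene start in bp (negative is upstream), for cluster 7 (orange) and the other 9 clusters (grey). Cluster 7 peaks at 16.1 in the bin before the start, where the others have 2.64. The others peak at 3.91 in the bin 1750 bp upstream, where cluster 7 has 4.59.

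Which nuclei carried several of the genes was examined next, counting a gene as present when any of its annotated promoters held at least 1 fragment. Each nucleus was thinned to 10000 fragments, which left out 5 cluster 7 nuclei and 36 others that were shallower. Then 45 of 104 cluster 7 nuclei carried at least 1 of the 10 genes (43.3%, 33.6 to 53.3%), against 237 of 1305 others (18.2%, 16.1 to 20.4%). The next highest was cluster 8 with 28.3%. In erythroid-like cluster 5 it was 16 of 179 (8.94%, 5.20 to 14.1%), at a median of 60994 fragments before thinning beside 76639.5 in cluster 7. By stage, the shares of cluster 7 were 3 of 6, 14 of 31 and 28 of 67 nuclei, and those of the others 13.3%, 17.6% and 19.8%. Cluster 7 was thus higher than the others together in every library. In E15.5 cluster 8 was within counting error of it, with 14 of 38 nuclei (36.8%, 21.8 to 54.0%) beside 41.8% (29.8 to 54.5%). The intervals of clusters 5, 9, 10 and 11 in that library, from 10, 19, 24 and 6 nuclei, held 41.8% as well. That of cluster 6 (7.65 to 30.8%) overlapped the interval of cluster 7. With 1 barcode of each linked group, 9 of 26 nuclei were left in E13.5 (34.6%, 17.2 to 55.7%).

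For several genes at a time the difference between the shares was smaller and their ratio larger. Whether single genes at these rates would give such a ratio was not tested. At least 2 genes were found in 14 of 104 cluster 7 nuclei (13.46%, 7.56 to 21.6%) and 19 of 1305 others (1.46%, 0.88 to 2.26%), with 1 of 6, 4 of 31 and 9 of 67 nuclei by stage in cluster 7, and in E13.5 1 of 26 with 1 barcode of each linked group. At least 3 genes were found in 5 cluster 7 nuclei (4.81%, 1.58 to 10.9%) and 1 other (0.0766%). Cluster 5 had 0 of 179 nuclei with at least 2, which allows a share of up to 1.68%. Without thinning, 46 of 109 cluster 7 nuclei (42.2%) and 163 of 1341 others (12.2%) carried at least 3, and 21 and 16 nuclei carried at least 5. Keeping 1 barcode of each linked group gave 5.05% for at least 3 after thinning, and leaving out the 5% deepest nuclei of each library, the alternative run for doublets, gave 5%. Most cluster 7 nuclei, 59 of 104, carried none at this depth.

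**Figure D4:**
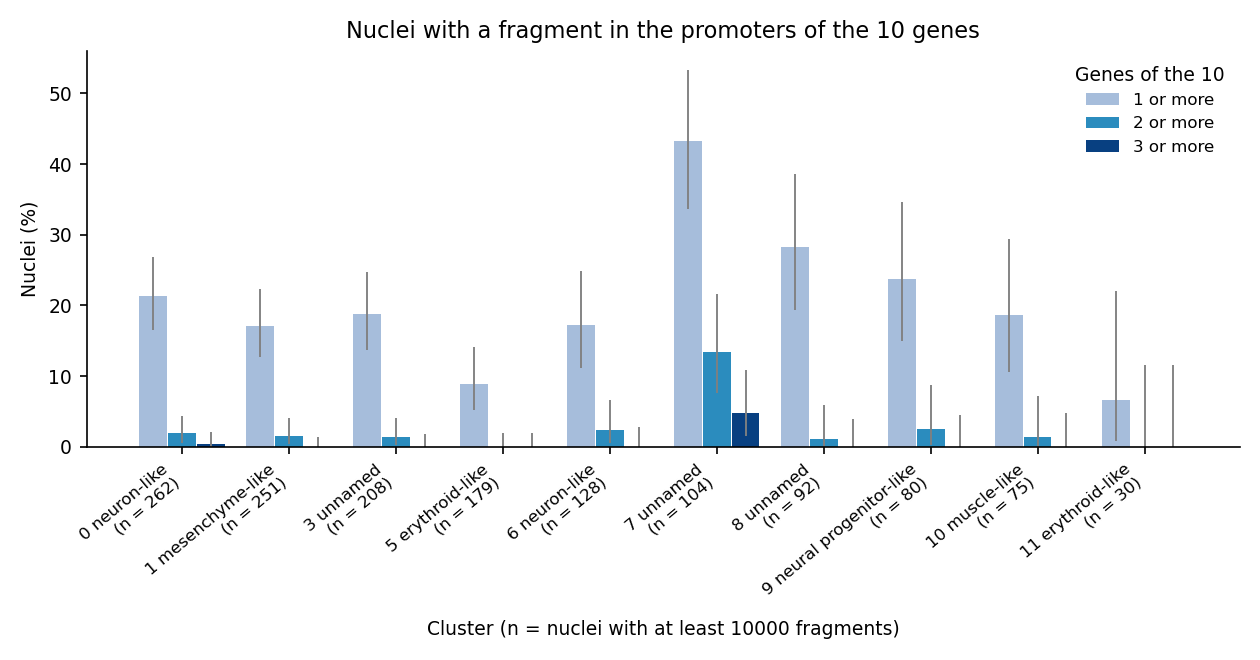
Share of nuclei (%) in each cluster with a fragment in the promoters of at least 1, 2 or 3 of the 10 genes, after thinning each nucleus to 10000 fragments, with exact 95% binomial intervals as grey lines. Cluster 7 reaches 43.3% for at least 1 gene and 13.46% for at least 2, while cluster 8 follows with 28.3% for at least 1.

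Pairs of genes in the same nucleus were counted without thinning. Epcam was found together with Esrp1 in 20 of 109 cluster 7 nuclei (18.3%) and 35 of 1341 others (2.61%), with 0, 6 and 14 of the cluster 7 nuclei from the 3 stages in order. Cdh1 was found with Esrp1 in 20 nuclei (2, 3 and 15) against 21 others (1.57%), and Grhl2 with Esrp1 in 19 against 36. Krt5 was found with Krt14 in 6 cluster 7 nuclei, all from E13.5, and in 1 other nucleus. Of those 6 nuclei 5 were linked barcodes, and 2 were left with 1 barcode of each group. Epcam and Krt5 met in 8 nuclei, all from E13.5, of which 6 were linked and 3 were left. The pairs with Esrp1 changed less without linked barcodes, with 17, 19 and 18 nuclei left for Epcam, Cdh1 and Grhl2. After thinning to 10000 fragments, these 3 genes met Esrp1 in 3, 1 and 2 cluster 7 nuclei and in 0 others. The nucleus with the most genes carried 8 of the 10 (all but Krt5 and Grhl2) on 37814 fragments, and 5 after thinning. It came from E15.5, as did all 6 cluster 7 nuclei with at least 6 genes, none of them linked.

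Other epithelial genes were counted in the same way, on lists that hold none of the 10. Of 45 genes 20 were raised and 0 lowered in the gene span, beside 4.96% of all genes raised, with a median ratio of 1.47 beside 0.976. At promoters 25 were raised and 0 lowered, beside 7.27% raised, with a median of 1.78 beside 0.957. Among 13 junction genes 6 were raised, led by Cldn3 with a ratio of 3.66, Cldn4 with 2.92 and Cldn7 with 2.50, claudins of tight junctions, and the desmosome gene Dsp with 1.87. Of 7 keratins 5 were raised, with Krt19 at 2.92 and Krt17 at 2.06 ahead of Krt8 and Krt18, the pair of simple epithelia, at 1.83 and 1.68. The Krt19 promoter was not raised, with 4 fragments and a ratio of 0.88 (0.23 to 2.38). Of 12 factors 5 were raised: Esrp2, the paralog of Esrp1, led with 2.60, ahead of the epithelial transcription factors Elf3 with 2.10, Klf5 with 1.99 and Grhl3, a relative of Grhl2, with 1.77. Of 8 surface proteins and proteases 3 were raised (Rab25 and Spint1 with 1.66 each and Prss8 with 1.65). The fewest were raised among the 5 basement membrane adhesion genes, 1 of 5, and the median ratio of that list was 1.33.

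By library the gene-span sums of these lists followed the stages unevenly. The junction list had 395, 498 and 657 CPM in cluster 7 against 438, 452 and 445 CPM in the others, so that cluster 7 was lower at E12.5. The factor list had 395, 438 and 552 CPM against 419, 356 and 337 CPM, and the surface list 122, 254 and 250 CPM against 181, 188 and 167 CPM, both of them again lower in cluster 7 at E12.5. The keratin list had 81.4, 143 and 112 CPM against 63.3, 68.0 and 63.3 CPM, and was higher in each library, while at promoters it was lower at E12.5, with 20.9 against 80.0 CPM. The basement membrane list had 496.7, 704.7 and 653.7 CPM against 454.3, 466.6 and 463.9 CPM, higher in each library as well. At promoters that list too was lower at E12.5, with 20.9 against 61.5 CPM. Cldn3 had 2, 17 and 165 fragments in cluster 7, and Krt19 had 3, 49 and 78. As with Krt5 in the gene span, the keratin list was highest in E13.5, but with 1 barcode of each linked group it had 114 CPM there, close to the 112 CPM of E15.5.

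Genes of internal epithelia, formed from endoderm, were raised in the gene span in 4 of 7 cases, beside 4.96% of all genes: Shh, a signal of gut and lung epithelium, with 2.45, the pioneer factors Foxa1 with 2.28 and Foxa2 with 2.20, and the lung and thyroid factor Nkx2-1 with 1.90. The intestinal factor Cdx2 was lowered with 0.55, while its promoter, with 7 fragments, was neither. At promoters 2 of the 7 were raised (Foxa1 with 2.12 and Foxa2 with 1.99), beside 7.27%. The span list summed to 85.5, 210.2 and 240.7 CPM in cluster 7 against 188.2, 146.4 and 152.4 CPM in the others, so that cluster 7 was lower at E12.5. Of 10 mesenchymal genes, among them the repressors of the epithelial state, 1 was raised (Vim with 1.58) and 0 lowered. Snai1 had 1.38, Snai2 1.35 and Twist2 1.25. At promoters 2 were raised (Vim with 1.62 and Twist2 with 1.51) and 1 lowered (Prrx1 with 0.47), with a median of 1.15.

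Markers of other cell types stood beside the epithelial genes in cluster 7, and their counts in the gene span are to be read beside the 4.96% of all genes raised and the 8.72% lowered. Of 9 chondrocyte markers 8 were raised, among them Matn3 with 3.08, Col9a1 with 2.14, Cnmd with 2.004 and Col2a1 with 1.87, and the list summed to 403, 1003 and 528 CPM in cluster 7 against 420, 356 and 379 CPM in the others. Of 7 glia markers 4 were raised (Erbb3 with 2.09, S100b with 1.64, Sox10 with 1.63 and Foxd3 with 1.59), with 326, 265 and 199.7 CPM against 170.3, 147.1 and 139.5 CPM. In E13.5, where Krt5 was highest in the gene span of cluster 7, the chondrocyte list was highest too, and with 1 barcode of each linked group it had 1079.6 CPM there. The part of these lists in the results for the 10 genes was not tested. In the gene span no marker was raised of mesenchyme (7 genes, 0 lowered), neuron (6 genes, 4 lowered), neural progenitor (6, 1), erythroid (7, 5), muscle (7, 4), endothelial (7, 2), liver (5, 3) or white blood cells (6, 1). At promoters 1 of the 7 mesenchyme markers was raised (Twist2) and 4 were lowered, and 1 of the 7 endothelial markers was raised (Erg with 1.81) and 2 were lowered, beside 7.27% of all genes raised and 7.53% lowered. A single gene does not set a list this short apart from those shares.

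Within cluster 7, nuclei with more of the 10 promoters had more fragments in other epithelial genes when the libraries were summed. After thinning, nuclei with 0, with 1 or 2, and with 3 or more of the 10 promoters (59, 40 and 5 nuclei) had 1689, 2225 and 3283 CPM in the spans of the 45 other epithelial genes, which share no span with the 10. Against nuclei with 0, the ratio was 1.32 (1.17 to 1.48) with 1 or 2 and 1.94 (1.58 to 2.38) with 3 or more. For the genes of internal epithelia the levels were 177, 246 and 662 CPM, with ratios of 1.39 (0.97 to 2) and 3.75 (2.23 to 6.11). For the chondrocyte list, the libraries summed, the levels went the other way, with 739, 583 and 317 CPM and ratios of 0.79 (0.64 to 0.97) and 0.43 (0.21 to 0.78). The libraries differ in that list and in their share of each group: 17 of the 59 nuclei with 0 and 1 of the 5 with 3 or more came from E13.5. Within E15.5, which held the other 4, the ratio for 3 or more was 0.51 (0.23 to 0.99), from 9 fragments. The mesenchyme list had 353, 262 and 28.8 CPM, the last from 1 fragment, and the glia list 265, 289 and 86.4 CPM, the last from 3. For nuclei with at least 1 promoter against none, the epithelial ratio was 1.97 (1.60 to 2.44) in E13.5 and 1.24 (1.09 to 1.42) in E15.5. With 1 barcode of each linked group it was 1.45 (1.12 to 1.88) in E13.5, while E15.5 has no linked nuclei in cluster 7. At E12.5, with 3 nuclei on each side, it was 0.86 (0.47 to 1.56). For the internal epithelia the ratio was 1.15 (0.61 to 2.17) in E13.5, or 0.96 (0.42 to 2.05) there with 1 barcode of each linked group, and 2.003 (1.34 to 3.02) in E15.5, while E12.5 had 0 fragments on both sides. That difference was thus clear of counting error in E15.5 alone. The chondrocyte ratio was 2.02 (0.63 to 7.53) in E12.5, 0.65 (0.47 to 0.90) in E13.5 but 0.92 (0.65 to 1.28) there with 1 barcode of each linked group, and 0.77 in E15.5 with an interval from 0.59 to 1.004. Over the 3 libraries it was 0.75 (0.61 to 0.91), or 0.80 (0.65 to 0.98) with 1 barcode of each group, and with that setting no single library had an interval clear of 1. The glia ratio was 0.55 (0.30 to 0.98) in E13.5 and 1.58 (1.05 to 2.40) in E15.5, or 0.83 (0.44 to 1.501) in E13.5 with 1 barcode of each linked group, where it was no longer clear of 1. Nuclei are not replicates, and the intervals hold for these nuclei only.

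**Figure D5:**
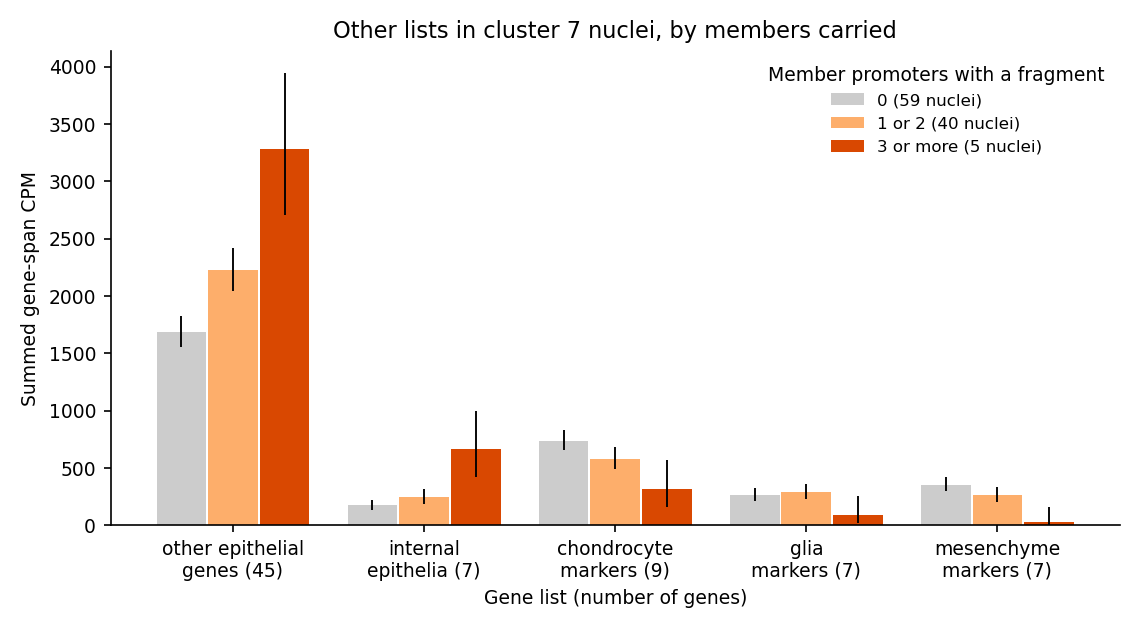
Summed gene-span CPM of 5 gene lists in cluster 7 nuclei thinned to 10000 fragments, grouped by how many of the 10 promoters held a fragment (grey 0, light orange 1 or 2, dark orange 3 or more), with exact Poisson 95% intervals. The other epithelial genes go from 1689 to 3283 CPM and the chondrocyte markers from 739 to 317 CPM.

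The 10 genes resembled each other across clusters to different degrees. As a description over 10 clusters, which share depth and libraries, Pearson's r of log2 CPM in the gene span was 0.893 between Epcam and Cdh1, 0.949 between Grhl2 and Ovol1 and between Esrp1 and Ovol1, and 0.730 between Krt5 and Krt14. Tfap2a had values from -0.415 with Ovol1 to -0.0359 with Krt5. Cluster 11, with 43 nuclei, was the highest for Tfap2a, and these values rest on it in part: without it, a setting chosen after seeing the data, Tfap2a had values over 9 clusters from 0.0867 with Krt14 to 0.705 with Grhl2. Without cluster 11 the other pairs named had 0.740 for Epcam and Cdh1, 0.709 for Grhl2 and Ovol1, 0.464 for Esrp1 and Ovol1, and 0.694 for Krt5 and Krt14. Trp63 followed the genes other than Tfap2a with values from 0.418 (Krt5) to 0.810 (Grhl2) over 10 clusters. Without cluster 11 its values with them ran from 0.0112 (Ovol1) to 0.479 (Epcam). Of 18217 other genes ranked by likeness to the mean of the 10, the closest were Fxyd3 (r = 0.989, ratio in cluster 7 of 3.17), Map3k21 (0.980, 2.11), Itga3 (0.979, 1.52), Fgfbp1 (0.977, 2.75) and 2310030G06Rik (0.976, 2.54). For these 5, r without cluster 11 ran from 0.894 to 0.961.

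Across libraries, the counts of raised genes were 3, 6 and 6 in the order of the stages in the gene span, beside 8.88%, 8.3% and 7.99% of all genes, and 2, 5 and 6 at promoters beside 2.84%, 7.92% and 8.74%. Cdh1 was the only gene of the 10 raised in all 3 libraries in both measures, with the E12.5 promoter resting on 3 nuclei. A ratio above 1 in all 3 libraries was found for 5 genes in the gene span (Cdh1, Krt14, Cldn6, Esrp1 and Tfap2a), beside 11.5% of all genes, and for 4 at promoters (Cdh1, Krt14, Grhl2 and Esrp1), beside 8.76%. In both later libraries it was above 1 for 9 genes in the gene span, all but Trp63, beside 23.4%, and for 7 at promoters beside 21.7%. E12.5 had 6 cluster 7 nuclei and 47744 promoter fragments there, so that 3 fragments equal 62.8 CPM and few of its promoter values could be told from the others. The Krt14 promoter, 1 of the 2 raised at E12.5, lay below that level with 41.9 CPM from 2 fragments in 1 nucleus.

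Counting every annotated promoter of a gene, 8 of 10 were raised, Cldn6 being added to the 7, and 0 lowered, beside 6.96% and 7.58% of 19698 genes, with a median ratio of 3.06 beside 0.957. The same 8 were highest in cluster 7, beside 6.29% of genes. For Ovol1 that rank was within counting error, with 40.6 CPM (30.8 to 52.5) beside 39.5 CPM (31.8 to 48.5) in cluster 3. The intervals of Krt5, Krt14, Cldn6 and Grhl2 also overlapped that of another cluster. By stage 3, 6 and 6 were raised, beside 3.41%, 8.2% and 8.29%. A ratio above 1 in all 3 libraries was found for 5 genes (9.38% of all genes) and in both later libraries for 8 (22.3%).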

How the data were processed

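The authors deposited fragment files made per the file headers with CellRanger ATAC 2.0.0 on mm10, in which duplicates are collapsed to 1 line with a read-pair count and both ends lie at the Tn5 insertion, so no further shift was applied. A deposited table gave library and cluster number of 1879 nuclei and counts of fragments per nucleus; 20 of its columns were not used, and the study describes clusters made after the nuclei were integrated with the spatial spots, but whether its cluster numbers are those is not stated in any source used here. The processing notes also name Seurat 4.1.0 and Signac 1.6.0. Nuclei held 8603028, 66925016 and 39513357 fragments in stage order, and recounts differed from the deposited tallies by at most 0.604%.

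Unique fragments were counted per gene span and promoter of GENCODE vM21, leaving out 91 Pcdh and Ugt genes and 228 spans over 500 kb, in Python 3.11.15 with numpy 2.4.6, pandas 2.3.3, scipy 1.17.1 and matplotlib 3.10.9. Genes needed 50 fragments in the span or 20 at the promoter. Ratios carry exact conditional, CPM exact Poisson and shares exact Clopper-Pearson 95% intervals, a count of 0 allows 3 counts, and all cover counting error only. Amplified fragments of 1 embryo are not replicates. The counting and ratio steps were tested on simulated data. Thinning used a fixed seed. Doublets were not removed. The members and lists were chosen with earlier results of these data known. Named beyond the 10 genes were the up to 4 genes per list with the highest span ratio among those with 20 cluster 7 fragments, the 5 genes most like the mean of the 10, and per gene the 500-bp window with most cluster 7 fragments; Cdx2, Prrx1, Erg and the genes of the pairs were named after their values were seen. Results for some genes of these lists are not reported here. Alternatives covered scaling, the clusters compared, depth, linked barcodes, single libraries, filters, the fold, windows and, added after seeing the data, a ratio stratified by library, correlations without cluster 11 and recounts of the printed windows and of the nuclei within cluster 7 with 1 barcode of each linked group.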

Additional observations from a re-analysis of the deposited data

Results flagged for a closer look

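Several genes went one way in one library and the other way in the rest; none of these differences between stages was tested, since each stage is 1 library. In the gene span the ratio of cluster 7 to the other clusters at E12.5 was 0.852 for Epcam, 0.331 for Krt5, 0.827 for Grhl2 and 0 for Ovol1, all above 1 in both later libraries. For Trp63 it was 0.764 at E15.5 and above 1 at the earlier stages. At promoters Ovol1 had 0.475 at E13.5 with 2 fragments and was above 1 at E15.5, and Tfap2a had 0.466 at E15.5 with 4 fragments and was above 1 at E13.5.

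Fragments of the 10 genes also lay outside the nuclei compared. The left-out cluster 2 held 612 in the gene spans (444 CPM, 223 nuclei with a median of 7470 fragments) and cluster 4 held 33 (318 CPM, 206 nuclei with a median of 703). Barcodes absent from the table of nuclei but with at least 1000 fragments held 82, 3239 and 2508 in stage order.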

How the results depend on the processing

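Stages are 1 library each and carry no replicate numbers that pair them, while cluster 7 and the other clusters lie in every library and were compared within libraries by the stratified ratio. The count of 7 raised genes in the gene span ranged from 6 to 8 when each library was left out and lay between 6 and 8 with the other settings, except that a fold of 2 left 2 (Krt5 and Krt14). At promoters the 7 became 5 to 7 without single libraries and 7 or 8 otherwise. The ratio stratified by library, chosen after seeing the data, gave 8 in both. Of 230 ratios of single genes under the alternatives that can change a ratio, 201 stayed inside the counting interval and 27 moved further without a raised gene falling below 1. For 2, a raised gene fell below 1: the Krt5 gene span was 0.929 without E13.5 and the Ovol1 promoter 0.404 without E15.5. Leaving out single libraries, these ranged from 0.929 to 3.97 and from 0.404 to 2.86. Of the remaining ratios, 13 crossed 1, all of them of Trp63 or Tfap2a, which were not raised. The causes were not tested.

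The share of cluster 7 nuclei with at least 3 genes, 4.81%, was 42.2% without thinning, 13% after thinning to 20000 fragments and 45.2% with gene spans, and 13.46% of nuclei had at least 2. The share of other nuclei, 0.0766%, was 12.2%, 0.574% and 17.5% in the same order, and 1.46% had at least 2. Without single libraries the shares ran from 2.70% to 5.48% and from 0% to 0.182%; the only other nucleus with 3 came from E15.5. The number of nuclei limits E12.5 most, with 6 in cluster 7.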
